A study of Homo sapiens with 12 samples.

Results

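Bypass receptor tyrosine kinases are receptors other than EGFR that can keep growth signalling going when EGFR is blocked, and 10 of them were followed here in lung cancer cells: MET, AXL, IGF1R, INSR, FGFR1, FGFR2, FGFR3, EPHA2, EPHA4 and DDR1. They were found by the gene symbol annotated to each array probe, which gave 15 probes of 48107 (10 of 20046 genes with a named probe). Of the 10 genes, 8 had a probe above background on at least 3 of 12 arrays and were tested, among 13514 genes tested in all. FGFR1 and FGFR2 did not reach that level and were not tested. The cells were PC9, an established line from a lung adenocarcinoma whose EGFR is mutated and active, and which responds to gefitinib, an inhibitor of the EGFR kinase. They were compared in 4 groups of 3 single-colour arrays: co-culture with gefitinib, co-culture without gefitinib, monoculture with gefitinib, and monoculture with the solvent DMSO. Co-culture meant 48 h beside MRC-5 cells, a line of lung fibroblasts, kept apart by inserts with pores of 1 µm. Gefitinib was given at 0.5 µM after 24 h, and all media contained 10% FCS. The labels carry 1 treatment text for every sample, in which a wash with PBS separates gefitinib from the co-culture, and nothing used here says whether the drug stayed on during co-culture. The vehicle of the co-culture without gefitinib and the medium of the monocultures are not stated either, so an effect of medium and an effect of fibroblasts cannot be told apart. The titles of the co-culture samples end in WH, which no source used here explains. Nothing says that the 3 samples of a group came from separate cultures, so the p-values measure the spread between these samples, which may be technical.

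Receptor tyrosine kinases sit in the cell membrane, bind a ligand outside the cell and phosphorylate themselves and their adaptors inside it, which feeds the RAS/ERK and PI3K/AKT pathways. Because these pathways are shared, another active receptor can replace EGFR in driving them, and amplification of MET and raised AXL are known routes of resistance to EGFR inhibitors in lung cancer. MET binds hepatocyte growth factor, AXL binds GAS6, IGF1R and INSR bind insulin-like growth factors and insulin, and the FGFR family binds fibroblast growth factors with heparan sulfate. EPHA2 and EPHA4 bind ephrins, which are themselves anchored in the membrane of neighbouring cells, and DDR1 binds collagen. The arrays measured transcripts, not receptor protein or its phosphorylation.

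The promoter windows of the 4 receptors with the clearest differences are shown so that the genes behind the values can be seen at their starts. Each runs 5′ to 3′ on the gene's strand, from 250 bases before to 50 bases after the start, as given by RefSeq on GRCh38.p14. Capitals mark the GC box GGGCGG or its reverse complement. The windows are EPHA2 at chr1:16156020-16156319 (minus strand), EPHA4 at chr2:221574153-221574452 (minus strand), AXL at chr19:41218973-41219272 (plus strand) and DDR1 at chr6:30880720-30881019 (plus strand).

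EPHA2: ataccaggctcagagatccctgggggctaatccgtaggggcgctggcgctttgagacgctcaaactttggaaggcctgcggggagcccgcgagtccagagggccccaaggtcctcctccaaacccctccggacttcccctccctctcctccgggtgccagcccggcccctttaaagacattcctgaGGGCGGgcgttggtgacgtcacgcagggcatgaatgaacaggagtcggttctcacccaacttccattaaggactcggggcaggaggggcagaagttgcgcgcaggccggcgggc

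EPHA4: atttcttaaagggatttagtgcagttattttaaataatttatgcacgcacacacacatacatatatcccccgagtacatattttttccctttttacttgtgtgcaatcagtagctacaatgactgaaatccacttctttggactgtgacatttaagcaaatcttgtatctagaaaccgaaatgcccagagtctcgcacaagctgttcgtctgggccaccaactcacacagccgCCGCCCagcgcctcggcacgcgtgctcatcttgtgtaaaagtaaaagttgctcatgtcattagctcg

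AXL: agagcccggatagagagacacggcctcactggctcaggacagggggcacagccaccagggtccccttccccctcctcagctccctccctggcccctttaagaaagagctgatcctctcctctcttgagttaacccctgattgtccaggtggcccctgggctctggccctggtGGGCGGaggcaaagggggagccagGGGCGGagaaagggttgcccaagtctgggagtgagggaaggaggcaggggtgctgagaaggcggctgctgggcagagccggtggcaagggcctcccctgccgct

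DDR1: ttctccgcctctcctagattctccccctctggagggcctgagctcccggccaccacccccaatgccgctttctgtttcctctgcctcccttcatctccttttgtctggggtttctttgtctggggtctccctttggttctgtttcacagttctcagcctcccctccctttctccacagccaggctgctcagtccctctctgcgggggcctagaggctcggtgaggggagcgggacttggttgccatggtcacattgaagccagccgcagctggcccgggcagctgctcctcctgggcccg

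The EPHA2, AXL and DDR1 windows held 64.3%, 66.0% and 62.3% G and C, and the EPHA4 window held 43.0%. EPHA2 and EPHA4 had 1 GC box each, AXL had 2 and DDR1 had 0. GC boxes stood in 45.0% of all 35116 promoter windows of that length in the RefSeq table. Windows were matched for 9 of the 10 receptors, and among these 9 the AP-1 motif TGANTCA and the ETS motif CCGGAA were found in 0, against 7.71% and 17.2% of all windows. The E-box CACGTG, found in 7.26% of all windows, stood in that of MET. Both strands were searched and overlapping matches were counted, as in the GC boxes of INSR. A match describes letters in the window and is no evidence of a bound factor, and RefSeq lists further starts for some genes (8 windows for DDR1).

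A probe counted as above background on an array where its detection p-value was under 0.05. MET, AXL, FGFR3, EPHA2, EPHA4 and DDR1 each had a probe above background on 12 of 12 arrays. The insulin receptor family was near background: IGF1R was above it on 3 of 3 arrays of co-culture with gefitinib, 0 of co-culture without it, 2 of monoculture with gefitinib and 0 of DMSO monoculture. INSR was above background on 3, 2, 0 and 1 arrays of the same groups. FGFR1 was above background on 1 array of 12, by 1 of its 2 probes, and FGFR2 on 1 array, and both arrays were monocultures with gefitinib. Over the 12 arrays the FGFR1 probes read between 80.9 and 107.6 and between 76.6 and 111.4 intensity units, and the FGFR2 probe read between 80.2 and 104.4. No group stood apart from another in these readings.

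**Figure D1:**
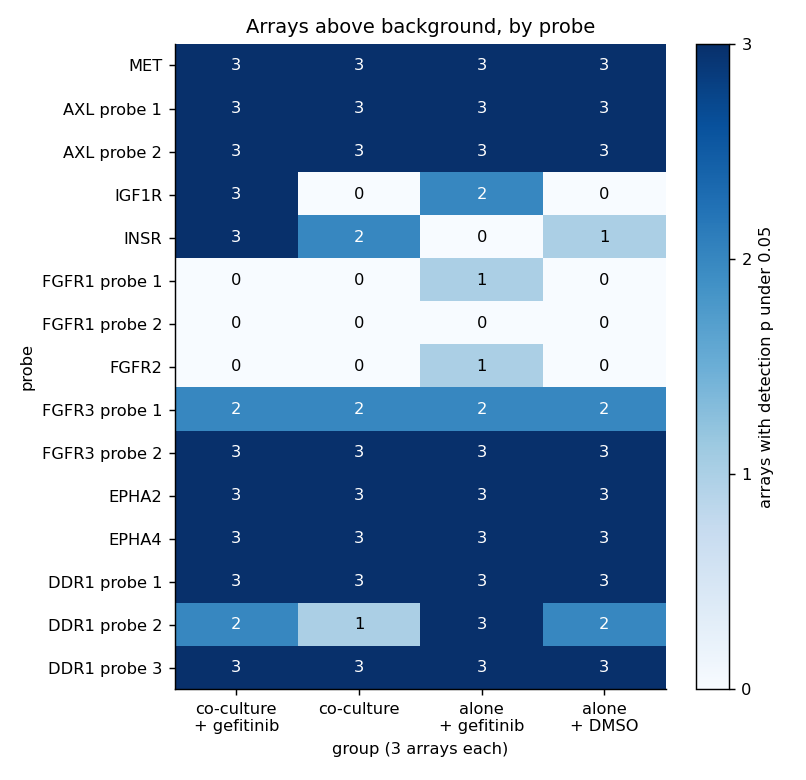
Number of arrays, out of 3 per group, on which each of the 15 probes was above background (rows are probes, columns are groups, darker is more arrays). FGFR1 and FGFR2 are at 0 or 1 in every group, and IGF1R and INSR vary between groups.

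Arrays had 20917 to 22820 detected probes and mean signals of 370.9 to 443.8 intensity units, and arrays of a group correlated at 0.9886 to 0.9909 across genes, which are not independent replicates. The number of arrays, 3 per group, limits the precision. All 8 epithelial markers examined were above background on every array of every group. Their summed normalized level, taken back from the log2 scale, ran from 31600 to 32900 in co-culture with gefitinib, 28600 to 30700 in co-culture without it, 36300 to 37900 in monoculture with gefitinib and 28700 to 31200 in DMSO monoculture. Summed as deposited signal, the ranges were 33200 to 36700, 26400 to 33800, 34700 to 35500 and 28100 to 31700 in the same order of groups, so the 2 groups with gefitinib overlapped on that scale. The part of these markers in the results was not tested. Of 15 fibroblast markers, 4, 3, 4 and 4 were above background on all 3 arrays of these groups and 6, 8, 7 and 6 on 0 arrays. Their summed normalized level ran from 5600 to 6960, 8440 to 8650, 5600 to 7080 and 6110 to 7590, most of it from S100A4 and FBLN1, which were high in monoculture too. The list counts took any probe of a gene, and the counts of named markers are for the brightest probe of each. COL3A1, LUM, PDGFRB and THY1 were above background on 0 of 12 arrays, and COL1A1 on 12 of 12. TWIST1 was above background on 3, 2, 3 and 3 arrays of these groups, and COL1A2 on 1 of each. PDGFRA was above background on 0, 0, 1 and 1, PRRX1 on 1, 0, 1 and 1, and POSTN on 0, 0, 0 and 1. COL6A3 was above background on 2 arrays of co-culture with gefitinib, on 1 of co-culture without it and on 0 of either monoculture, and FAP on 1 array of co-culture with gefitinib and on 0 of the others. DCN was above background on 2 arrays of co-culture with gefitinib, on 0 of co-culture without it, on 1 of monoculture with gefitinib and on 0 of DMSO monoculture. The part of fibroblast transcripts in the differences between co-culture and monoculture was not tested. In whole populations, fewer cells with a transcript and less of it per cell cannot be told apart.

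With gefitinib in monoculture, 4 of the 8 tested receptors rose (MET, FGFR3, EPHA4 and DDR1) and 2 fell (AXL and EPHA2). In the same comparison 21.1% of all tested genes rose and 19.7% fell, so a change in a receptor was in itself a common event. The median change of the receptors was 0.48 log2 units, against 0 over all genes. With gefitinib in co-culture EPHA4 rose and AXL and EPHA2 fell, beside 10.9% of all genes higher and 9.17% lower, and the median was 0.23 against -0.01. Co-culture without gefitinib changed 0 of the 8 receptors by limma at an adjusted p under 0.05, and 1 of them, EPHA4, had an unadjusted p under 0.05. There, 0.237% of all genes were higher and 0.118% lower. In cells given gefitinib, co-culture against monoculture left EPHA2 higher and EPHA4 and DDR1 lower, beside 7.10% of all genes higher and 6.36% lower. The gefitinib effect itself differed between the cultures for 2 receptors, EPHA2 upward and DDR1 downward, beside 3.94% and 3.34% of all genes. The comparisons share groups: each gefitinib effect has 1 group in common with each co-culture effect, and the difference is made of both gefitinib effects.

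**Figure D2:**
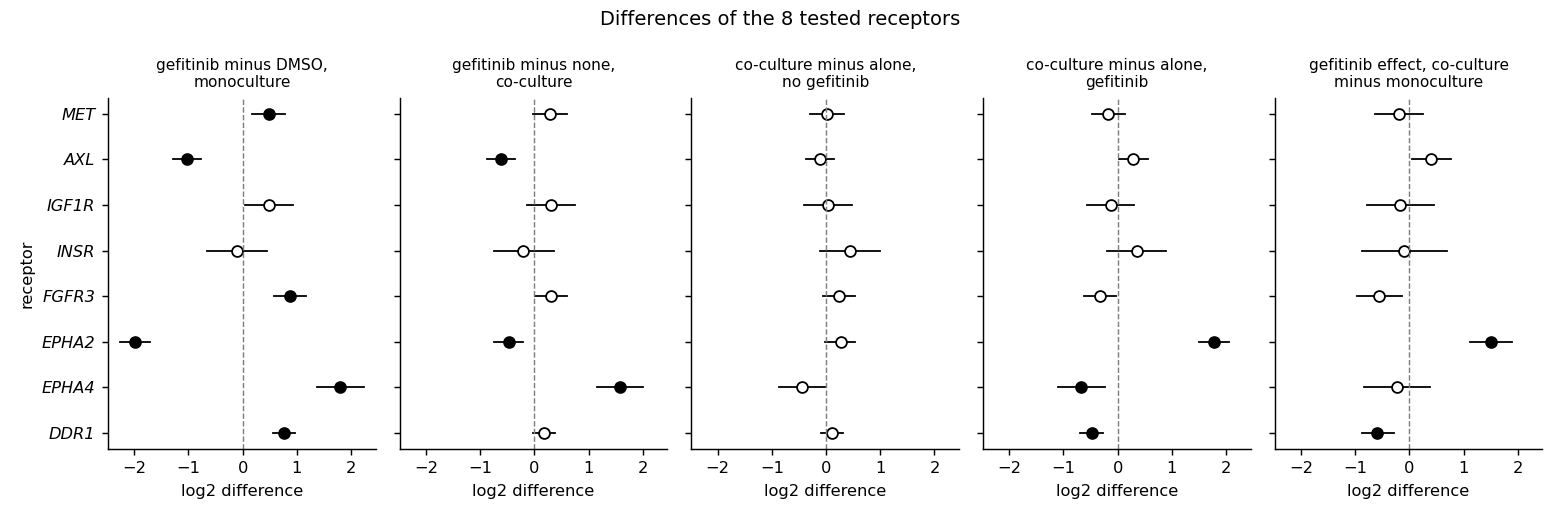
Log2 difference of each of the 8 tested receptors in the 5 comparisons, with its 95% confidence interval from limma. Filled points passed an adjusted p of 0.05, and EPHA2 stands farthest from 0 in 3 of the panels.

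Quantile normalization sets the arrays to 1 distribution. Scaling each array by its median in its place moved the median of all genes to -0.12 for gefitinib in monoculture, 0.133 for gefitinib in co-culture, -0.099 for co-culture without gefitinib, 0.187 for co-culture with gefitinib and 0.292 for the difference between the gefitinib effects. Of the genes called, the share that was higher was then 32.96%, 83.71%, 35.29%, 91.15% and 95.08%, in place of 51.64%, 54.28%, 66.67%, 52.75% and 54.12%. Values under that scaling are given below relative to these medians where it ended or made a call.

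EPHA2, an ephrin-A receptor at chr1:16124337-16156069 that is abundant in many carcinomas and lies downstream of RAS/ERK signalling, had the sharpest pattern. Its probe read 505, 503 and 592 intensity units in co-culture with gefitinib, and 533, 637 and 747 in co-culture without it. It read 187, 182 and 216 in monoculture with gefitinib, against 547, 525 and 547 in DMSO monoculture. In these readings the 3 monocultures with gefitinib lay far below the other 9 arrays, while the co-cultures with gefitinib overlapped the arrays without the drug. After normalization the co-cultures with gefitinib (8.64, 8.52 and 8.85 log2 units) lay below the co-cultures without it (9.01, 9.13 and 9.29). On the normalized log2 scale EPHA2 fell by 1.98 ± 0.13 with gefitinib in monoculture (SE, 3 arrays per group), to 0.253 of its level (adjusted p = 3.19e-07 by limma). In co-culture it fell by 0.47 ± 0.13 (adjusted p = 0.0195 by limma). The difference between both effects was 1.51 ± 0.18 (95% interval 1.12 to 1.90, adjusted p = 0.00131 by limma), and it was 1.00 with no background correction. Among cells given gefitinib, EPHA2 was 3.42-fold higher in co-culture than in monoculture (log2 1.77 ± 0.13, adjusted p = 1.29e-05 by limma). Without the drug the co-culture differed by 0.27 ± 0.13 (95% interval -0.01 to 0.54, adjusted p = 0.438 by limma). The fall in co-culture was lost with median scaling (-0.30, or -0.43 relative to all genes, adjusted p = 0.251) and without single arrays: arrays 2 or 3 of co-culture without gefitinib (adjusted p = 0.0502 and 0.075) and array 1 (0.0622) or 2 (0.0788) of co-culture with gefitinib.

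EPHA4, a receptor at chr2:221418027-221574202 that binds both classes of ephrin and guides axons in the nervous system, moved the opposite way. It read 260.1, 275 and 212 intensity units in co-culture with gefitinib, against 118, 139.5 and 124 in co-culture without it. In monoculture it read 304, 304 and 299 with gefitinib, against 164, 129 and 138 with DMSO. The arrays with and without gefitinib did not overlap in either culture. EPHA4 rose by 1.80 ± 0.20 in monoculture, 3.49-fold (adjusted p = 1.95e-05 by limma), and by 1.58 ± 0.20 in co-culture, 2.99-fold (adjusted p = 0.000167 by limma). The probe was dim without gefitinib, and the sizes moved with the treatment of background: with no correction they were 1.01 and 0.75, and with the authors' normalized values 1.12 and 0.83. The difference between both effects was -0.22 ± 0.28, with a 95% interval from -0.83 to 0.38 (adjusted p = 0.688 by limma), so neither a smaller nor a larger effect in co-culture was shown. With median scaling that difference was 0.17, or -0.12 relative to all genes.

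Among cells given gefitinib, EPHA4 was lower in co-culture than in monoculture (-0.67 ± 0.20 log2 units, adjusted p = 0.0442 by limma), and the arrays of those groups did not overlap. That call was close to the threshold. It was lost with median scaling (-0.39, or -0.58 relative to all genes, adjusted p = 0.187) and with no filter on dim probes (adjusted p = 0.0601), and it held in 3 of the 12 fits that left out 1 array. It was lost without arrays 1, 2 or 3 of monoculture with gefitinib (adjusted p = 0.107, 0.109 and 0.0868), any array of co-culture with gefitinib (0.0521, 0.0627 and 0.163 for arrays 1, 2 and 3), array 1 of co-culture without gefitinib (0.0549) and arrays 2 or 3 of DMSO monoculture (0.051 and 0.0521). Without array 3 of co-culture with gefitinib, which read lowest of its group, the difference was -0.49.

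**Figure D3:**
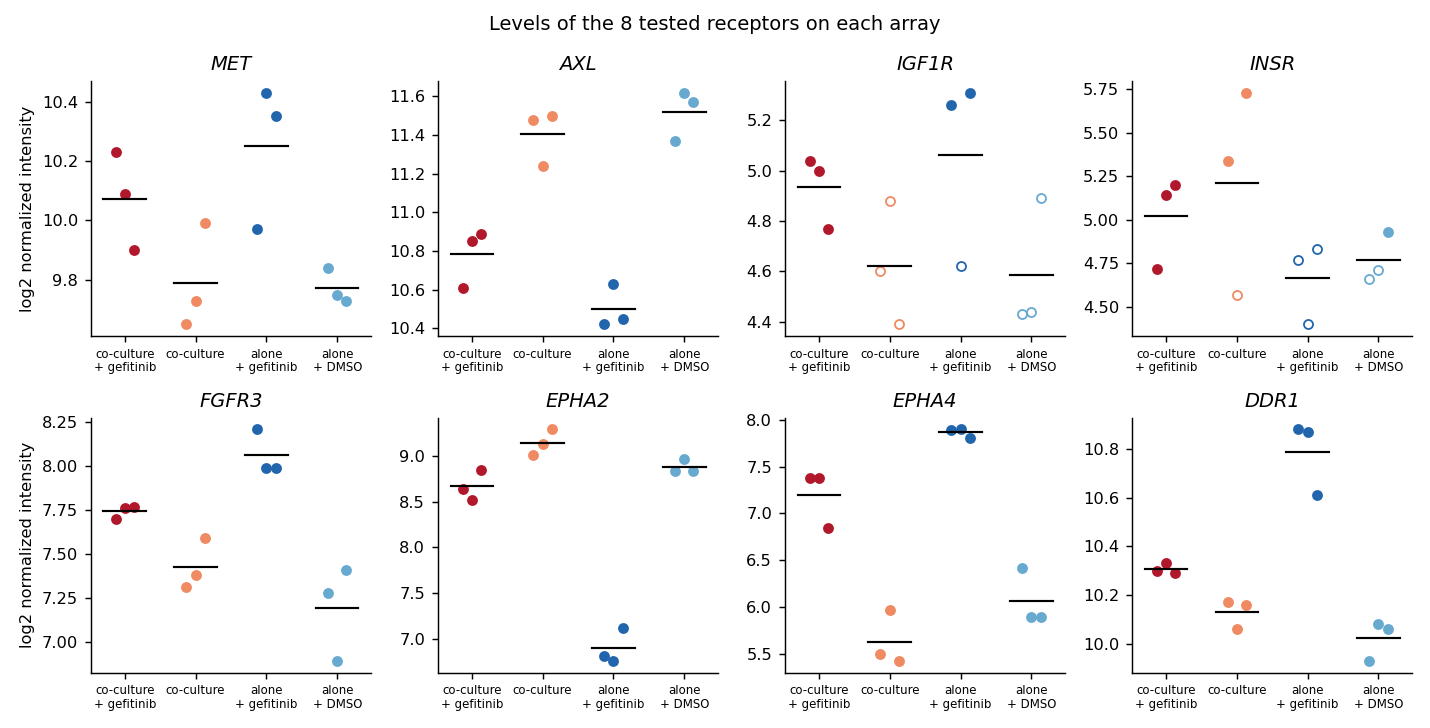
Normalized log2 intensity of the 8 tested receptors on each array (points; open points were not above background on that array), with the group mean as a line. Vertical scales differ between panels, and EPHA2 is low in the monocultures with gefitinib, while EPHA4 is high in both groups with gefitinib.

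AXL, a receptor of the TAM family at chr19:41219223-41261766, fell with gefitinib in both cultures. Its brighter probe read 1706, 2140 and 2168 intensity units in co-culture with gefitinib, against 2635, 2510 and 3249 in co-culture without it. In monoculture it read 1350, 1517 and 1401 with gefitinib, against 2915, 3023 and 3203 with DMSO. The arrays with gefitinib lay below those without it in each culture, with no overlap. The change was -1.02 ± 0.12 in monoculture, to 0.493 of the level with DMSO (adjusted p = 3.12e-05 by limma), and -0.62 ± 0.12 in co-culture (adjusted p = 0.00313 by limma). The second AXL probe changed by -0.99 ± 0.14 and -0.56 ± 0.14 in a fit of all passing probes (adjusted p = 0.000176 and 0.0192 by limma). Median scaling ended the call in co-culture (-0.50, adjusted p = 0.0604), although relative to all genes the change was -0.63 there. The gefitinib effects differed by 0.40 ± 0.17 (95% interval 0.04 to 0.77, adjusted p = 0.176 by limma), and among cells given gefitinib co-culture exceeded monoculture by 0.29 ± 0.12 (adjusted p = 0.137 by limma). With median scaling both passed, at 0.81 (0.52 relative to all genes, adjusted p = 0.042) and at 0.56 (0.38 relative to all genes, adjusted p = 0.0377). The second also passed with no background correction (0.27, adjusted p = 0.0403).

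MET, the receptor for hepatocyte growth factor at chr7:116672196-116798377, was measured by a single probe. The probe read 1337, 1307 and 1135 intensity units in co-culture with gefitinib and 775, 927 and 1173 in co-culture without it, where the highest array exceeded the lowest of the drug group. In monoculture it read 1023, 1341 and 1324 with gefitinib and 1031, 846 and 937 with DMSO, with array 1 of the gefitinib group at the level of DMSO in these readings. After normalization that array (9.97 log2 units) lay above the DMSO arrays (9.84, 9.75 and 9.73). MET rose by 0.48 ± 0.14 in monoculture, 1.39-fold (adjusted p = 0.018 by limma). In co-culture the difference was 0.29 ± 0.14 (95% interval -0.02 to 0.60, adjusted p = 0.193 by limma), and both effects differed by -0.19 ± 0.20 (95% interval -0.63 to 0.25, adjusted p = 0.633 by limma). The rise in monoculture was lost with median scaling (0.25, or 0.37 relative to all genes, adjusted p = 0.344), without array 3 of DMSO monoculture (0.45, adjusted p = 0.0534) and without array 2 or 3 of monoculture with gefitinib (0.39 and 0.42, adjusted p = 0.0734 and 0.0626).

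DDR1, a collagen receptor at chr6:30880970-30900156, had 3 probes. The brightest read 1402, 1527 and 1457 intensity units in co-culture with gefitinib and 1099, 1153 and 1307 in co-culture without it. In monoculture it read 1827, 1772 and 1560 with gefitinib, against 1093, 1054 and 1164 with DMSO. The monocultures with gefitinib were the highest group and the DMSO monocultures the lowest. DDR1 rose by 0.76 ± 0.09 with gefitinib in monoculture, 1.70-fold (adjusted p = 5.54e-05 by limma), and differed by 0.18 ± 0.09 in co-culture (95% interval -0.03 to 0.38, adjusted p = 0.235 by limma). The difference between the effects was -0.59 ± 0.13 (adjusted p = 0.024 by limma), and among cells given gefitinib DDR1 was lower in co-culture than in monoculture (-0.48 ± 0.09, adjusted p = 0.00688 by limma).

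The lower DDR1 level in co-culture with gefitinib was lost with median scaling (-0.19, or -0.38 relative to all genes, adjusted p = 0.383) and held in 12 of 12 fits that left out 1 array. The difference between the gefitinib effects on DDR1 was less firm. It was lost with median scaling (-0.18, or -0.48 relative to all genes, adjusted p = 0.561), with the mean of the 3 probes (-0.61, adjusted p = 0.0564) and with the replicate number as a block (adjusted p = 0.0504). It was also lost without array 1 of DMSO monoculture (adjusted p = 0.0555), arrays 1 or 2 of monoculture with gefitinib (0.0578 and 0.0564), arrays 1 or 3 of co-culture without gefitinib (0.0567 and 0.0528) and array 2 (0.0503) or 3 (0.0571) of co-culture with gefitinib. The dimmer DDR1 probes changed by 0.66 ± 0.22 (adjusted p = 0.041) and 0.50 ± 0.23 (adjusted p = 0.137) with gefitinib in monoculture. In co-culture they differed by 0.34 ± 0.22 and -0.42 ± 0.23, neither of which passed limma (adjusted p = 0.379 and 0.295), so the probes of DDR1 did not share a sign there. Between co-culture and monoculture with gefitinib the dimmer probes differed by -0.32 ± 0.22 and -0.76 ± 0.23 (adjusted p = 0.476 and 0.0736 by limma). For the difference between the effects they gave -0.32 ± 0.31 and -0.92 ± 0.33 (adjusted p = 0.662 and 0.162 by limma). In that fit of all passing probes the brightest probe had an adjusted p of 0.0515 by limma for the difference.

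**Figure D4:**
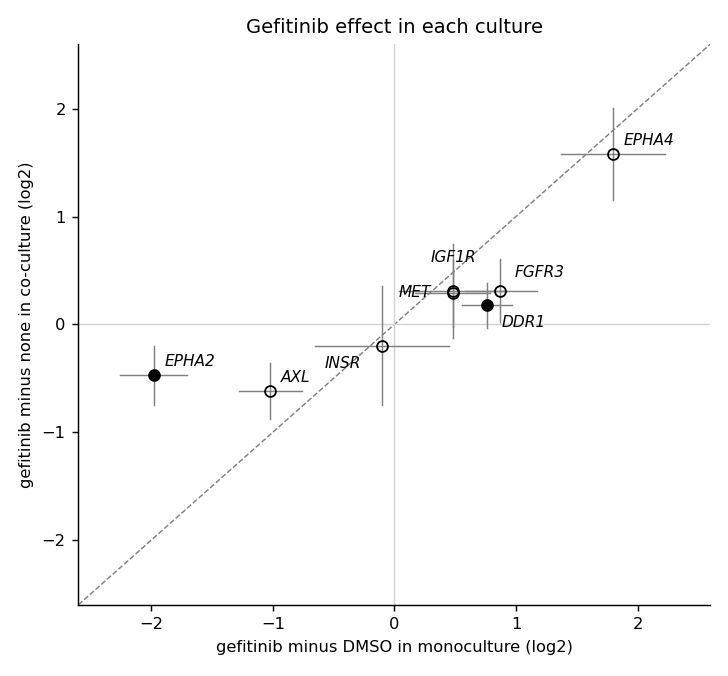
Gefitinib effect on each of the 8 tested receptors in co-culture (vertical, log2) against that in monoculture (horizontal, log2), with 95% intervals from limma; points on the dashed line would have equal effects. Filled points (EPHA2 and DDR1) passed the test of the difference, and of the 3 receptors that changed in both cultures (AXL, EPHA2 and EPHA4) EPHA4 lies closest to the line.

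FGFR3 at chr4:1793293-1808867 was the only fibroblast growth factor receptor among the 3 examined here that could be tested. Its brighter probe read 303, 332 and 326.5 intensity units in co-culture with gefitinib and 214, 241 and 279.5 in co-culture without it. It read 358, 318 and 327 in monoculture with gefitinib, against 234.5, 179 and 248 in DMSO monoculture. Arrays with gefitinib lay above those without it in each culture. FGFR3 rose by 0.87 ± 0.13 in monoculture, 1.83-fold (adjusted p = 0.000281 by limma). In co-culture the difference was 0.31 ± 0.13 and did not pass (95% interval 0.02 to 0.61, adjusted p = 0.133 by limma). Both effects differed by -0.56 ± 0.19 (adjusted p = 0.103 by limma), which passed with no background correction (-0.38, adjusted p = 0.0447) and with the authors' normalized values (-0.41, adjusted p = 0.0486). The dimmer FGFR3 probe, above background on 2 of 3 arrays in each group, differed by 0.78 ± 0.30 in monoculture (adjusted p = 0.0738 by limma) and by -0.11 ± 0.30 in co-culture (adjusted p = 0.875 by limma).

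IGF1R at chr15:98648539-98964530 and INSR at chr19:7112265-7294414, close relatives that bind insulin-like growth factors and insulin, stayed near background. IGF1R read 113, 115 and 107 intensity units in co-culture with gefitinib and 94.6, 106.5 and 86.1 in co-culture without it. It read 114, 95.5 and 117 in monoculture with gefitinib and 87, 86.2 and 106.7 in DMSO monoculture. IGF1R was above background only in the groups with gefitinib, so it entered the test only through their arrays. Its bound for gefitinib was 1.28-fold in monoculture (95% interval of the log2 difference 0.04 to 0.92, adjusted p = 0.0793 by limma). In co-culture the bound was 1.17-fold (95% interval of the log2 difference -0.13 to 0.75, adjusted p = 0.324 by limma), and neither difference passed the threshold. The monoculture difference passed without array 3 of DMSO monoculture (0.63, adjusted p = 0.0376) and without array 2 of monoculture with gefitinib (0.70, adjusted p = 0.0107), against 0.48 ± 0.20 with all arrays. These were the only 2 of the 12 fits without 1 array in which it passed. Over those 12 fits the difference ran from 0.36 to 0.70, with adjusted p up to 0.239 by limma. INSR read 102, 119.8 and 120.9 in co-culture with gefitinib, 114, 95.6 and 135 in co-culture without it, 101, 84 and 103.5 in monoculture with gefitinib and 98, 97.8 and 108 in DMSO monoculture. These groups overlapped, and INSR passed in none of the 5 comparisons (adjusted p from 0.43 to 0.912 by limma). A bound is the mean of the brighter group over that of the dimmer, where the dimmer group is set to the lowest signal of detected probes on those arrays or to its own value if higher. It is an estimate from group means and not the smallest change that the spread allows.

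In the order of normalized levels, EPHA2 ran from co-culture without gefitinib (9.15 log2 units) through DMSO monoculture (8.88) and co-culture with gefitinib (8.67) to monoculture with gefitinib (6.90). The gap of 1.77 above the last group was the only one over 0.3. EPHA4 ran the other way, from monoculture with gefitinib (7.87) through co-culture with gefitinib (7.20) and DMSO monoculture (6.07) to co-culture without gefitinib (5.62), and its last neighbours overlapped. DDR1, FGFR3 and MET shared the order monoculture with gefitinib, co-culture with gefitinib, co-culture without gefitinib, DMSO monoculture. For DDR1 and FGFR3 only the last neighbours overlapped, and for MET all neighbours did.

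Ligands of these receptors were examined as a list of 35 genes, 17 of which were tested. With gefitinib in monoculture 4 of the 17 rose and 2 fell, and in co-culture 3 rose and 2 fell, with medians of 0.03 and 0.07. Over all genes 21.1% rose and 19.7% fell in monoculture, and 10.9% and 9.17% in co-culture. Co-culture without gefitinib changed 0 of 17, beside 0.237% of all genes higher and 0.118% lower. Among cells given gefitinib 3 were higher and 1 lower in co-culture, beside 7.10% and 6.36% of all genes. The ephrins carried most of these calls. EFNA1, a ligand of EPHA2, read 742, 785 and 738.5 intensity units in co-culture with gefitinib, against 320.1, 332 and 423 in co-culture without it. In monoculture it read 1136, 1129 and 1117 with gefitinib, against 375, 305 and 335 with DMSO. The gefitinib arrays were higher in each culture with no overlap, so this ligand was high where EPHA2 was lowest. EFNA1 rose by 2.07 ± 0.10 in monoculture (adjusted p = 5.28e-08 by limma) and by 1.10 ± 0.10 in co-culture (adjusted p = 1.72e-05 by limma). The difference was -0.97 ± 0.14 (adjusted p = 0.00429 by limma), which median scaling ended (-0.56, or -0.85 relative to all genes, adjusted p = 0.132).

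Among the transmembrane ephrins EFNB1 and EFNB2 fell. EFNB3 was higher with gefitinib in co-culture, with a bound of 1.37-fold (95% interval of the log2 difference 0.27 to 0.77, adjusted p = 0.00662 by limma). In monoculture its bound was 1.22-fold and did not pass (95% interval of the log2 difference 0.05 to 0.54, adjusted p = 0.0563 by limma). The effects differed by 0.23 ± 0.16 (adjusted p = 0.443 by limma). Without the drug, 0 of 3 co-cultures and 0 of 3 DMSO monocultures were above background for EFNB3. EFNB3 therefore entered the test only through the arrays with gefitinib, and its p-values are no separate support for a rise. EFNB1 read 276, 242 and 263 intensity units in co-culture with gefitinib, against 579, 656 and 741 in co-culture without it, and 172, 151 and 168 in monoculture with gefitinib, against 515, 511 and 485 in DMSO monoculture. It was lowest in the monocultures with gefitinib and did not overlap between drug and no drug. EFNB1 fell by 2.32 ± 0.13 in monoculture and fell by 1.89 ± 0.13 in co-culture (adjusted p = 1.29e-07 and 1.9e-06 by limma). EFNB2, which EPHA4 binds, changed by -1.54 ± 0.10 and -0.86 ± 0.10 (adjusted p = 5.26e-07 and 0.00015 by limma). Among cells given gefitinib, co-culture had higher EFNB1 (0.87 ± 0.13) and EFNB2 (0.70 ± 0.10) and lower EFNA1 (-0.87 ± 0.10), with adjusted p of 0.00142, 0.00157 and 0.000363 by limma. The gefitinib effect on EFNB2 differed by 0.68 ± 0.15 between cultures (adjusted p = 0.0201 by limma; 0.05 without array 3 of co-culture with gefitinib).

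**Figure D5:**
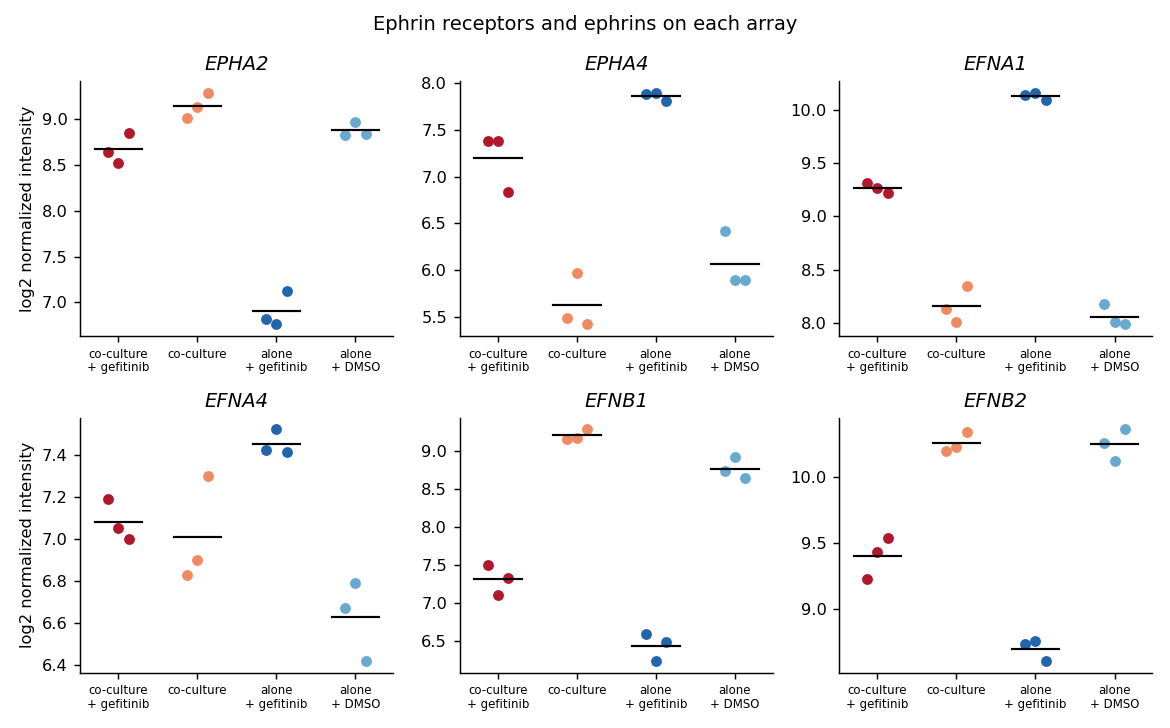
Normalized log2 intensity of EPHA2, EPHA4 and 4 ephrins on each array, by group, with group means as lines and vertical scales that differ between panels. EFNA1 is highest, and EFNB1 and EFNB2 lowest, in the monocultures with gefitinib.

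GAS6, the ligand of AXL, rose by 0.59 ± 0.10 with gefitinib in monoculture and by 0.57 ± 0.10 in co-culture (adjusted p = 0.000442 and 0.00148 by limma), the opposite of the direction of AXL. It was above background on 12 of 12 arrays. COL4A1, a collagen IV chain, was higher by 0.72 ± 0.14 in co-culture than in monoculture among cells given gefitinib (adjusted p = 0.00561 by limma). Looked at after their values were seen, and by the most often detected probe of each, HGF was above background on 3 of 12 arrays, IGF1 on 1, IGF2 on 3, FGF7 on 0 and FGF10 on 2. Other fibroblast growth factors were detected more often: FGF18 on 12 arrays, FGF23 on 11, FGF2 on 7, FGF9 on 6 and FGF1 on 4. HGF differed by -0.12 ± 0.22 between co-culture and monoculture with gefitinib (adjusted p = 0.798 by limma). The arrays measured RNA of the PC9 samples, and the ligands made by the fibroblasts were not analysed here.

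Proteins that handle these ligands formed a list of 13 tested genes, of which 5 rose and 4 fell with gefitinib in monoculture and 4 rose and 3 fell in co-culture. The medians were 0.13 and 0.03. Over all genes 21.1% rose and 19.7% fell in monoculture, and 10.9% and 9.17% in co-culture. Hepsin (HPN), a protease that activates the precursor of hepatocyte growth factor, was higher with gefitinib in both cultures. Bounds are given, since HPN was above background on 0 arrays of either group without the drug. HPN therefore entered the test only through the arrays with gefitinib, and its p-values are no separate support for the rise. In monoculture the bound was 2.64-fold (95% interval of the log2 difference 1.04 to 1.77, adjusted p = 3.74e-05 by limma). In co-culture it was 1.96-fold (95% interval of the log2 difference 0.69 to 1.42, adjusted p = 0.000884 by limma). SPINT1, an inhibitor of the activation of hepatocyte growth factor, rose by 1.16 ± 0.11 in monoculture and 0.47 ± 0.11 in co-culture. FGFBP1, which releases fibroblast growth factors from the matrix, fell by 0.67 ± 0.15 in monoculture and fell by 1.89 ± 0.15 in co-culture, and the effects differed by -1.22 ± 0.21 (adjusted p = 0.00748 by limma; with median scaling -0.83, or -1.12 relative to all genes, adjusted p = 0.0646). Metalloprotease ADAM10, which sheds receptors and ephrins, rose by 0.98 ± 0.19 and 0.81 ± 0.19, and the metalloprotease inhibitor TIMP3 changed by -0.56 ± 0.12 and -0.79 ± 0.12. SPINT1, FGFBP1, ADAM10 and TIMP3 passed limma in both cultures, with adjusted p of 0.00996 or less.

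Of 24 tested adaptors and proximal signalling genes, 7 rose and 5 fell with gefitinib in monoculture, and 4 rose and 1 fell in co-culture, with medians of -0.03 and 0.05. The shares of all genes were 21.1% higher and 19.7% lower in monoculture, and 10.9% and 9.17% in co-culture. CBLB, a ubiquitin ligase that directs receptors to degradation, rose by 1.91 ± 0.10 in monoculture and 1.63 ± 0.10 in co-culture (adjusted p = 9.31e-08 and 1.04e-06 by limma). Its relative CBL fell by 0.61 ± 0.09 in monoculture (adjusted p = 0.000208 by limma). In co-culture CBL differed by -0.12 ± 0.09, which did not pass (adjusted p = 0.413 by limma). GAB2, a docking protein below several receptors, rose by 1.48 ± 0.09 and 0.88 ± 0.09 (adjusted p = 2.81e-07 and 4.71e-05 by limma). GRB14, which restrains the insulin receptor, fell by 1.34 ± 0.22 in monoculture (adjusted p = 0.000405 by limma). In co-culture GRB14 differed by -0.59 ± 0.22, which did not pass (adjusted p = 0.0792 by limma).

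Other receptor tyrosine kinases were set beside the members as a list of 48 genes, 25 of them tested. With gefitinib 4 rose and 5 fell in monoculture and 4 rose and 2 fell in co-culture, with medians of -0.04 and -0.11. The shares of all genes were 21.1% higher and 19.7% lower in monoculture, and 10.9% and 9.17% in co-culture. Co-culture without gefitinib changed 0 of 25, as for the bypass receptors, beside 0.237% of all genes higher and 0.118% lower. In the list ROR1 changed by -1.42 ± 0.15 and -0.83 ± 0.15 (adjusted p = 1.99e-05 and 0.00263 by limma), and MST1R, the receptor closest to MET, changed by -0.49 ± 0.10 and -0.92 ± 0.10 (adjusted p = 0.00152 and 4.57e-05 by limma). Rises in both cultures were seen for ERBB3 (1.00 ± 0.09 and 0.35 ± 0.09), ERBB2 (0.76 ± 0.10 and 0.49 ± 0.10) and CSF1R (0.97 ± 0.21 in each). Their adjusted p by limma were 3.39e-06 and 0.015, 0.000116 and 0.00569, and 0.00275 and 0.00635. The rise of ERBB3 in co-culture was lost when its probes were averaged (0.27, adjusted p = 0.0724). The difference between the gefitinib effects passed for 1 of the 25, ERBB3, which rose less in co-culture (-0.66 ± 0.12, adjusted p = 0.0114 by limma). The ERBB3 difference was lost with median scaling (-0.26, or -0.55 relative to all genes, adjusted p = 0.402) and when the ERBB3 probes were averaged (-0.38, adjusted p = 0.124).

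Among all tested genes, the patterns most like each changed receptor over the 12 arrays were sought by Pearson correlation of log2 values, as a description in which the arrays share 4 group means. EPHA2 was most like PHLDA1 (0.991) and CKLF (0.990), and EPHA4 most like CALD1 (0.982) and KRT16 (0.980). For AXL these were EIF2B2 and TBRG4 (0.982 each), for FGFR3 DHX58 (0.972) and KIAA0513 (0.968), and for DDR1 SERINC3 (0.987) and MFGE8 (0.978). MET had the weakest match, with KIF1B (0.949) and ADGRL2 (0.930).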

How the data were processed

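Illumina single-colour bead arrays measured total RNA of 12 PC9 samples. Per the file headers, the deposited non-normalized table gives each array's signal (unit intensity, linear, as the authors left it before scaling) and a detection p-value per probe. The other deposited table gives the authors' normalized intensity, also linear. No source used here states the scanner software, the normalization method or how detection p-values were made. Set against the non-normalized signals, each normalized column was closest to its own array (12 of 12, lowest Spearman correlation 0.99993).

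Of 48107 probes, 5 lacked a value. The rest were corrected with neqc of limma 3.58.1 in R 4.3.3 (normal-exponential background from the detection p-values, offset 16, then quantile normalization and log2). The filter kept the 25510 probes detected (p-value under 0.05) on 3 or more arrays, of which 7221 had no single gene in the platform annotation and were left out. The brightest passing probe stood for its gene, which gave 13514 genes. The limma fit of 4 group means used every array and had 8 residual and 3.3 prior degrees of freedom. From it 5 contrasts were tested, two-sided, with Benjamini-Hochberg adjustment over all genes and a threshold of 0.05. Errors are moderated SEs that pool the spread of all groups. On simulated data for gefitinib in monoculture, over 13514 genes, the fit recovered 36% of changes of 0.5 log2 units, 78% of 1 and 98% of 2.

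The members, the gene lists and the alternatives were chosen with earlier results of these data known. Named were all members, genes among the up to 5 called with smallest p per list and comparison, and the 2 genes most correlated with each changed member. Same-numbered arrays did not deviate together (18 pairs, correlations from -0.0383 to 0.0389), so numbers were not used as a block in the main fit. Sequences are from RefSeq on GRCh38.p14. Alternatives were uncorrected background, scaling by the median, the authors' values, no filter or a strict one (detection p-value under 0.01), averaged probes, the replicate block, array weights, a fit of the compared groups alone, a fold of at least 1.5, and leaving out each array.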

Additional observations from a re-analysis of the deposited data

Results flagged for a closer look

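The results below were singled out because the gefitinib effect differed between co-culture and monoculture in a test of the difference itself (limma, adjusted p under 0.05). Groups of 3 arrays were too small to look for outlying arrays. Among the bypass receptors these were EPHA2, with a difference of 1.51 log2 units, and DDR1, with -0.59. EPHA2 passed under all 20 alternatives tried for it, and DDR1 under 10 of 20. Among the other listed genes, the differences were -0.66 for the receptor ERBB3, -0.97 for EFNA1, 0.68 for EFNB2 and -0.75 for EFNA4, -0.69 for SPINT1 and -1.22 for FGFBP1, and -0.60 for GAB2, 0.49 for CBL and -0.89 for GRB7. With median scaling the typical gene lay at 0.292 in this contrast, which shifts values upward, and the 2 genes with positive differences, EFNB2 and CBL, passed while those with negative differences did not. Relative to that median of all genes the differences were -0.55 for ERBB3, -0.85 for EFNA1, 0.77 for EFNB2, -0.66 for EFNA4, -0.57 for SPINT1, -1.12 for FGFBP1, -0.47 for GAB2, 0.58 for CBL and -0.80 for GRB7. EFNB2 had an adjusted p of 0.05 without array 3 of co-culture with gefitinib. Leaving out any single array except array 2 of co-culture with gefitinib ended the call of CBL, with adjusted p up to 0.0957. That of EFNA4 ended without most single arrays, with adjusted p up to 0.0914. Both also ended with no filter (adjusted p = 0.0601 and 0.0549 by limma) and with the replicate block (0.0686 and 0.076). Averaged probes ended the calls of CBL (0.40, adjusted p = 0.0957), EFNA4 (-0.28, 0.398), GRB7 (-0.72, 0.104), SPINT1 (-0.60, 0.0526) and ERBB3 (-0.38, 0.124). SPINT1 was at 0.0501 without array 3 of monoculture with gefitinib and 0.0514 without array 2 of co-culture without it, and GAB2 at 0.0512 without array 2 of co-culture with gefitinib. Of 8 epithelial markers, the gefitinib effect was higher in co-culture for 1 and lower for 1, beside 3.94% and 3.34% of all genes. The part of these markers in the differences was not tested.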

How the results depend on the processing

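Over 822 recomputed changes of the receptors, 783 kept their side of the threshold, 32 lost it, 7 gained it and 0 reversed a call; 16 changes without a call turned sign. The falls of EPHA2 and AXL and the rises of EPHA4, FGFR3 and DDR1 with gefitinib in monoculture, the rise of EPHA4 in co-culture, and, for EPHA2, both the difference of the gefitinib effects and the higher level in co-culture under the drug passed under every alternative run. For gefitinib in co-culture, 3 receptors passed, 1 with median scaling and 2 to 3 without single arrays. For the difference between the gefitinib effects, 2 passed, but 1 with the mean of probes, 1 with the replicate block, and 1 to 2 without single arrays. Without single arrays 5 to 6 passed for gefitinib in monoculture, 2 to 3 for co-culture with gefitinib and 0 for co-culture without it. That block ended the DDR1 difference (adjusted p = 0.0504 by limma) and no other call of a receptor; 4 of 12 arrays correlated best with their own number. Why calls were lost was not tested.

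Counts over all genes moved by over 1.5 times as follows. For co-culture without gefitinib 48 genes passed, 171 with no background correction, 119 with the authors' values, 85 with the strict filter, 17 with median scaling, 19 with the block, 3 with only the compared groups and 13 to 41 without single arrays; 1599 had an unadjusted p under 0.05. For the difference 983 passed, 1603 with no background correction, 1668 with median scaling 620 without array 2 and 567 without array 3 of the co-cultures that had gefitinib. For co-culture with gefitinib 1820 passed, 1133 without that array 2 and 1094 without that array 3. A fold of at least 1.5 left 3289 of 5511 in monoculture, 1411 of 2710 in co-culture and 829 of 1820 for co-culture with gefitinib. Signals close to background limit the values of IGF1R, INSR, FGFR1 and FGFR2.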
